A study of Mus musculus with 15 samples.

Results

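The genes described here are 10 receptors and surface or secreted markers of the endothelium, the cell layer that lines blood vessels: Kdr, Flt1, Tek, Tie1, Eng, Cdh5, Pecam1, Emcn, Vwf and Nos3. They were taken by symbol from a table of 16042 mouse genes. All 10 had a mean of at least 1 RPKM, the count of reads for a gene divided by its length and by the total of mapped reads, and were among the 10868 genes tested. Polyadenylated RNA was sequenced from the ventricles of 15 mice aged 20 to 22 weeks, in 5 groups of 3 mice. All mice carried MHCrtTA, a doxycycline-dependent activator expressed from the alpha myosin heavy chain promoter, which is active in heart muscle cells, and all ate food with 2 g/kg doxycycline after 2 to 3 hours without food.

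The control mice had the activator alone and ate doxycycline food for 72 hours. Mice of the remaining groups had in addition TRECUGBP1, a tetracycline-inducible cassette for the LYLQ isoform of human Celf1 with a Flag tag, and ate the same food for 12 hours, 24 hours, 72 hours or 7 days. Celf1 is an RNA-binding protein that acts in splicing and in the decay of messenger RNA. Only the comparison at 72 hours matched the time on doxycycline. The atria and a small piece of the apex had been removed, so each value comes from whole ventricle, in which fewer cells of a type and less RNA per cell cannot be told apart. The cassette was switched on in heart muscle cells and not, by its design, in the endothelium.

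Endothelial cells receive growth signals through Kdr and Flt1, the receptors for vascular endothelial growth factors. Kdr carries most of the growth signal, and Flt1 binds the ligand tightly and limits it. Tek is the receptor for angiopoietins and works together with Tie1, which keeps vessels stable, and Cdh5 and Pecam1 hold neighbouring cells together at their junctions. In the heart these genes mark the dense capillary bed between the muscle fibres, and also arteries, veins and the endocardium, in differing amounts.

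All 10 genes were detected in every mouse, with mean levels over the 15 mice from 74.7 RPKM for Eng and 52.8 RPKM for Pecam1 down to 10.5 RPKM for Vwf and 9.37 RPKM for Nos3. The row of the mouse gene for Celf1, listed as Cugbp1, was measured at 33.8, 36.1 and 33.3 RPKM in the controls, at 220, 351 and 345 RPKM at 12 hours, 416, 295 and 423 RPKM at 24 hours and 159, 179 and 181 RPKM at 72 hours. In the mice labelled as induced for 7 days it was 37.9, 30.9 and 29.5 RPKM, which overlaps the controls, so this row does not separate that group from the controls, and every direction given for 7 days rests on the label. The cassette encodes human Celf1, and whether its reads are counted in full in the row of the mouse gene is not known. Depth, estimated from the step between neighbouring values, was 10.02 to 51.7 M reads per column of the table with a median of 26.6 M, and the estimate of a column can be off by a whole-number factor. At these depths the smallest number of reads behind a member in any column was an estimated 569, for Tek, with a counting error of 4.19% if reads are independent. The depth estimate took both reads of a pair as counted, and counted by pairs the error would be larger. Each column of the table has 1 of 9 codes of unstated meaning: the 3 controls share 1 code with a single other mouse, of the 72 hour group, and no code of a 24 hour mouse is shared with any other time.

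After 7 days, 5 of the 10 genes had fallen against control: Tie1, Kdr, Nos3, Cdh5 and Tek. In the same comparison 54.8% of all tested genes passed in either direction, so the share of members that passed is near that of the table. By direction, 3061 of the 10868 genes were lower and 2899 higher, while all 5 members were lower. The 3 controls share 1 column code, and with the code as a term in the fit none of the 5 passed (adjusted p from 0.085 for Kdr to 0.938 for Nos3). None rose at that time, and Pecam1, Emcn and Vwf had higher means than in the controls without passing the test. At 12 hours 3 genes were lower (Flt1, Eng and Tie1), at 24 hours Eng alone, and at 72 hours none, where 13.2%, 16% and 11.6% of all genes passed. The 3 calls at 12 hours were lost with another scaling of the libraries. Of the 3 genes lower at 12 hours, Tie1 alone also passed at 7 days.

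**Figure D1:**
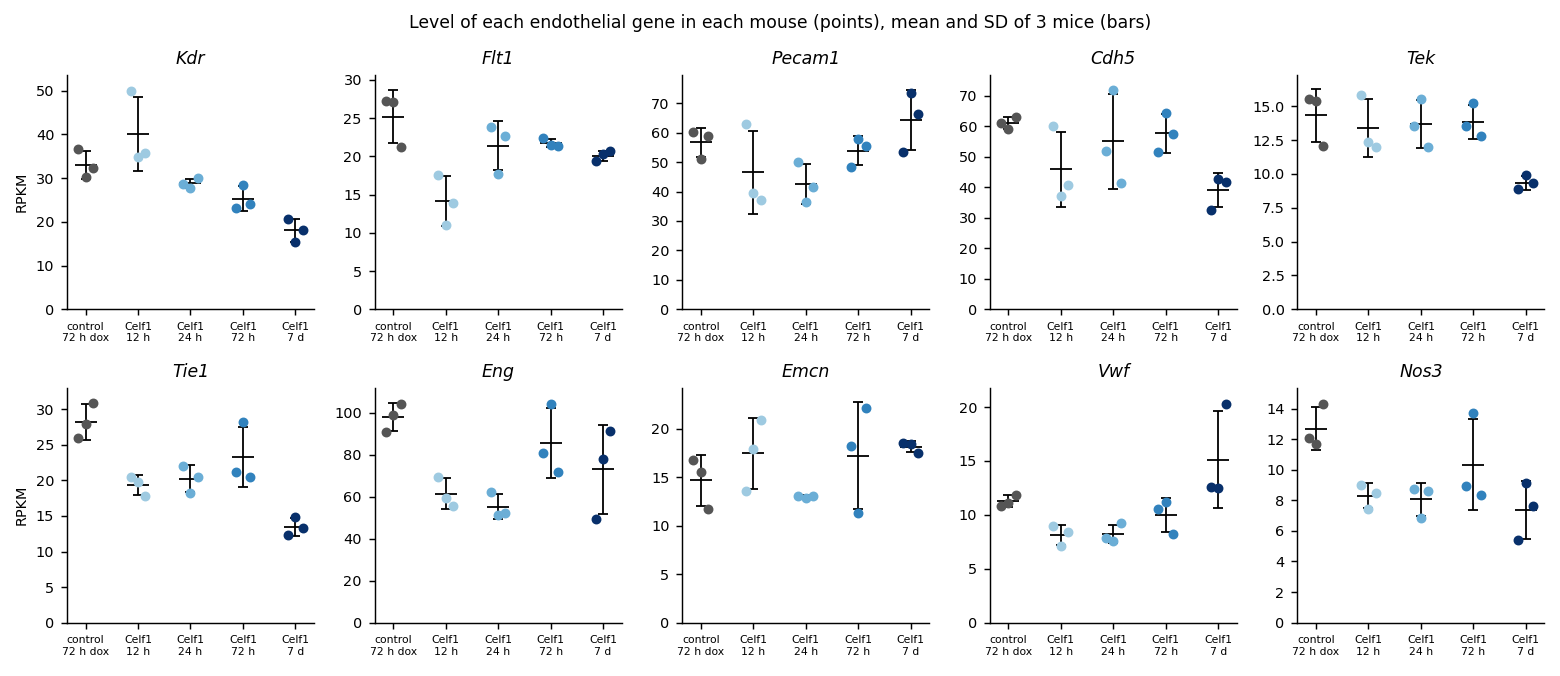
RPKM (vertical axis, from 0) of the 10 endothelial genes in each of the 15 mice (points), by group, with the mean and SD of 3 mice (bars). Kdr, Cdh5, Tek and Tie1 lie lowest at 7 days, Flt1 lies lowest at 12 hours, and Vwf lies highest at 7 days.

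Kdr was at 36.6, 30.2 and 32.4 RPKM in the controls and at 20.7, 15.5 and 18.1 RPKM at 7 days. The ranges did not overlap: every mouse at 7 days was below every control. Between these, Kdr was at 49.9, 34.8 and 35.8 RPKM at 12 hours, at 28.7, 27.8 and 29.9 RPKM at 24 hours and at 23.2, 28.5 and 24.1 RPKM at 72 hours. Of the neighbours in the order of its group means (12 hours, control, 24 hours, 72 hours, 7 days), 12 hours overlapped control and 24 hours overlapped 72 hours. At 7 days the log2 fold of RPKM + 1 against control was -0.84 ± 0.17 (SE, n = 3 mice a group), with a mean that fell by 45.3%, with an adjusted p of 0.00062 by limma with Benjamini-Hochberg adjustment over the 10868 genes. At 12 hours the fold was 0.26 ± 0.17 (adjusted p = 0.289), and it was 0.097 without A3252.

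Flt1, the receptor that competes with Kdr for the same ligand, was at 27.2, 27.1 and 21.2 RPKM in the controls and at 17.6, 10.98 and 13.9 RPKM at 12 hours. All 3 mice at 12 hours were below all 3 controls. It was at 23.8, 17.7 and 22.6 RPKM at 24 hours, 22.4, 21.5 and 21.3 RPKM at 72 hours and 19.4, 20.3 and 20.7 RPKM at 7 days. The fold at 12 hours was -0.80 ± 0.18 (adjusted p = 0.0139), and it did not pass without A3259, A3258 or A3276 (adjusted p = 0.0711, 0.0564 and 0.0516). At 7 days it was -0.30 ± 0.18 (adjusted p = 0.164), although its 3 values again lay below all controls.

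The ratio of Flt1 to Kdr within a mouse does not depend on how a library is scaled, apart from effects that differ by gene. It was 0.743, 0.898 and 0.655 in the controls and 0.352, 0.315 and 0.388 at 12 hours, with a mean of 0.352 ± 0.036 (SD, n = 3), and all 3 ratios at 12 hours were below those of every other group. It was 0.741 ± 0.097 at 24 hours, 0.868 ± 0.107 at 72 hours and 1.13 ± 0.19 at 7 days, where the 3 ratios of 0.937, 1.31 and 1.14 were above all controls and overlapped those at 72 hours. Beside the controls, the ratio was thus lower at 12 hours and higher at 7 days, and at 24 and 72 hours it overlapped the controls. This ratio was formed after the values were known and was not tested.

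Tie1 fell furthest of the 10 genes at 7 days, though not after a correction for GC content or with the column code in the fit. It was at 25.9, 27.96 and 30.8 RPKM in the controls, at 20.5, 19.8 and 17.8 RPKM at 12 hours, at 22.0, 18.3 and 20.5 RPKM at 24 hours, at 21.1, 28.2 and 20.5 RPKM at 72 hours and at 12.3, 14.8 and 13.3 RPKM at 7 days. Every mouse at 12 and 24 hours and 7 days was below every control, and 1 mouse at 72 hours lay within the control range. The fold was -0.52 ± 0.16 at 12 hours (adjusted p = 0.0450), -0.46 ± 0.16 at 24 hours (adjusted p = 0.061), -0.28 ± 0.16 at 72 hours (adjusted p = 0.273) and -1.01 ± 0.16 at 7 days (adjusted p = 6.1e-05), with a mean that fell by 52.2%. The call at 12 hours was lost without any 1 of the 6 mice (adjusted p from 0.0521 to 0.166).

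Tek, the angiopoietin receptor beside which Tie1 works, was at 15.5, 15.4 and 12.1 RPKM in the controls and at 8.85, 9.88 and 9.30 RPKM at 7 days, with no overlap. At the earlier times its 9 values ran from 12.0 to 15.8 RPKM and overlapped the controls in each group. The fold at 7 days was -0.56 ± 0.17 (adjusted p = 0.0092). At 12, 24 and 72 hours it was -0.09, -0.06 and -0.04, with adjusted p of 0.707, 0.809 and 0.900.

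Kdr and Tek fell at 7 days and Flt1 and Emcn did not pass the test there, so the 200 bases before their RefSeq starts are set beside each other to show what these stretches hold. Of the 10 genes, 6 matched the RefSeq promoter table, whose build is GRCm38.p6, not the build of the expression table. The windows are chr5:75978456-75978655 on the minus strand for Kdr, chr4:94739089-94739288 on the plus strand for Tek, chr5:147726012-147726211 on the minus strand for Flt1 and chr3:137340878-137341077 on the plus strand for Emcn. Each is written 5′ to 3′ on the strand of its gene, and capitals mark GGAA, the core letters bound by ETS factors such as Erg and Fli1, or TTCC, the same core on the other strand.
Kdr: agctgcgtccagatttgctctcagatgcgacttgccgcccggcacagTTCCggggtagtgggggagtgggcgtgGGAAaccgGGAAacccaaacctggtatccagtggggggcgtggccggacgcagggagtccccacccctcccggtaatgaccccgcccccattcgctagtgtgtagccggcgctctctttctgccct
Tek: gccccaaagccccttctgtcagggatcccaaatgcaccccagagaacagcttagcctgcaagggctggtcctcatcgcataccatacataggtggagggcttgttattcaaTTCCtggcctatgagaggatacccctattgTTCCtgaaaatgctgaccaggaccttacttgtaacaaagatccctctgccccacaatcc
Flt1: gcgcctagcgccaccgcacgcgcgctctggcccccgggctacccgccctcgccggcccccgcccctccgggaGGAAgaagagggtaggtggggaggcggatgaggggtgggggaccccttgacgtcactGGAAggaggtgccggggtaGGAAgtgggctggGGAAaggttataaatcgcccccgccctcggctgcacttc
Emcn: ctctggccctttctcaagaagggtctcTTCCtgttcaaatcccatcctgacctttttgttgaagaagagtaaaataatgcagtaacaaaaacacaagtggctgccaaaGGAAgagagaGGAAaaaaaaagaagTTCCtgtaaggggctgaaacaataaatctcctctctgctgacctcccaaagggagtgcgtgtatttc
The core occurred 3 times before Kdr, 2 times before Tek and 4 times before Flt1 and before Emcn. Tie1 also had 4 and Eng 2. At least 1 match stood in 89.0% of the 32851 windows of this length in the table, the median window held 2, and 21.5% held 4 or more. The number of matches did not separate the genes that fell from those that did not, and a match is a run of letters and not evidence of binding. The windows also differed in base composition, from 43.0% G and C before Emcn to 71.5% before Flt1.

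Eng, a co-receptor for transforming growth factor beta and bone morphogenetic proteins on endothelial cells, was at 91.1, 98.9 and 105 RPKM in the controls. It was at 69.5, 59.5 and 55.4 RPKM at 12 hours and at 62.2, 51.4 and 52.3 RPKM at 24 hours, with all 6 mice below all controls. The fold was -0.67 ± 0.21 at 12 hours (adjusted p = 0.0438) and -0.82 ± 0.21 at 24 hours (adjusted p = 0.020). At 12 hours it passed without A3252 and not without any other 1 mouse (adjusted p from 0.0748 to 0.152), and at 24 hours it did not pass without A3259, A3280 or A3262 (adjusted p = 0.0684, 0.0873 and 0.0814). At 72 hours Eng was at 80.9, 104 and 71.9 RPKM, overlapping the controls. At 7 days the mice were far apart, at 49.6, 78.2 and 91.4 RPKM, with a fold of -0.46 ± 0.21 (adjusted p = 0.069). It was -0.21 (adjusted p = 0.386) without A3269 and -0.65 without A3345, where it passed (adjusted p = 0.0219). Eng shares 124 bases of exon with Ak1 on the same strand, whose mean level was 360 RPKM, and 61 bases with Fpgs on the other strand, so a portion of its reads cannot be assigned with certainty.

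Cdh5, the cadherin of endothelial junctions, was at 60.9, 59.1 and 62.9 RPKM in the controls and at 32.6, 42.6 and 41.7 RPKM at 7 days, with no overlap. The fold at 7 days was -0.64 ± 0.21 (adjusted p = 0.0167), and it did not pass without A3280 (adjusted p = 0.0508) or without A3269 (0.0742). At 12 hours it was at 59.9, 37.0 and 40.7 RPKM, and at 24 hours at 51.8, 72.0 and 41.3 RPKM. In both groups 1 mouse was within or above the control range and 2 were below it, and neither passed the test. At 72 hours the mice were at 51.4, 64.2 and 57.6 RPKM, overlapping the controls.

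Pecam1, another junction protein that is present on platelets and some leukocytes as well, had a higher mean at 7 days than in the controls. It was at 60.1, 51.0 and 59.0 RPKM in the controls, 62.8, 39.6 and 37.2 RPKM at 12 hours and 49.98, 36.6 and 41.5 RPKM at 24 hours. At 72 hours it was at 48.3, 57.9 and 55.4 RPKM, and at 7 days at 53.3, 73.4 and 66.5 RPKM. The fold at 7 days was 0.17 ± 0.20 (adjusted p = 0.490), and the ranges overlapped. Set against Pecam1 in the same mouse, the mean ratio of Cdh5 was 1.08 ± 0.07 in the controls and 0.606 ± 0.023 at 7 days (SD, n = 3). The mean ratio of Tie1 went from 0.501 ± 0.061 to 0.211 ± 0.017, that of Tek from 0.255 ± 0.049 to 0.147 ± 0.017, and that of Kdr from 0.583 ± 0.032 to 0.290 ± 0.090. For these 4 genes and Nos3 (0.225 ± 0.021 to 0.113 ± 0.012) the ratio in every mouse at 7 days was below that in all 12 others. The mean ratio to Pecam1 was 0.448 and 0.317 for Flt1, 1.74 and 1.124 for Eng, 0.261 and 0.287 for Emcn and 0.200 and 0.237 for Vwf, in controls and at 7 days, and the 7 day values of these 4 overlapped those of other groups. All ratios were formed after the values were known and were not tested.

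**Figure D2:**
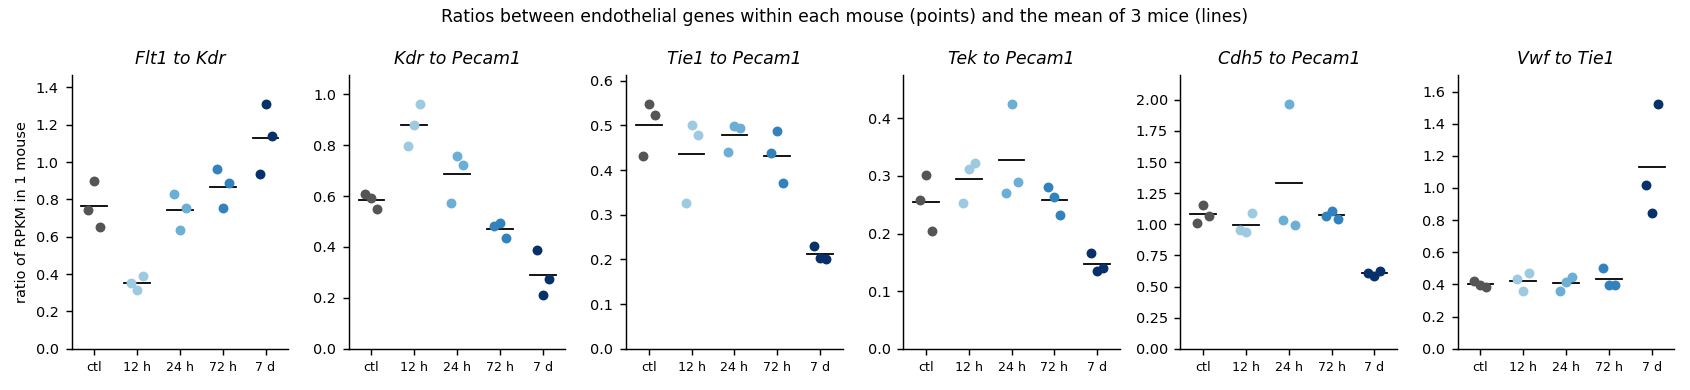
Ratio of the RPKM of 2 endothelial genes within each mouse (points; vertical axes from 0) by group, with the mean of 3 mice (lines). The Flt1 to Kdr ratio was lowest at 12 hours, the ratios of Kdr, Tie1, Tek and Cdh5 to Pecam1 were lowest at 7 days, and Vwf to Tie1 was highest at 7 days.

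Emcn, a sialomucin found mostly on capillary and venous endothelium, was at 16.7, 15.6 and 11.7 RPKM in the controls and at 18.5, 18.4 and 17.5 RPKM at 7 days. The 7 day values were close together and above all controls, but the fold of 0.30 ± 0.22 did not pass (adjusted p = 0.251). At 72 hours its mice were at 18.2, 11.3 and 22.1 RPKM, the widest relative spread of any of the 10 genes in that group. At 12 hours it was at 13.6, 17.9 and 20.9 RPKM and at 24 hours at 13.1, 12.9 and 13.1 RPKM.

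Vwf, the clotting protein that endothelial cells store in Weibel-Palade bodies, was at 10.9, 11.1 and 11.9 RPKM in the controls. It was at 8.92, 7.07 and 8.40 RPKM at 12 hours and at 7.87, 7.61 and 9.21 RPKM at 24 hours, below all controls in all 6 mice, with folds of -0.43 ± 0.19 (adjusted p = 0.123) and -0.41 ± 0.19 (adjusted p = 0.131). At 72 hours it was at 10.6, 11.2 and 8.18 RPKM. At 7 days it was at 12.6, 12.5 and 20.3 RPKM, above all controls, with A3345 well above the other 2, and a fold of 0.36 ± 0.19 (adjusted p = 0.121) that was 0.14 without that mouse. The ratio of Vwf to Tie1 ran from 0.385 to 0.419 in the controls and had a mean of 1.13 ± 0.35 at 7 days (SD, n = 3), and the lowest ratio at 7 days, 0.842, was above the highest of all other mice. This pair joins the gene with the highest fold at 7 days and the gene with the lowest, so its separation at 7 days follows from the choice.

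Nos3, the enzyme that makes nitric oxide in endothelial cells, was at 12.1, 11.7 and 14.3 RPKM in the controls. It was at 9.04, 7.42 and 8.48 RPKM at 12 hours, 8.75, 6.84 and 8.62 RPKM at 24 hours and 8.96, 13.8 and 8.34 RPKM at 72 hours. At 7 days it was at 5.38, 9.16 and 7.61 RPKM. Its values at 12 hours, 24 hours and 7 days were below all controls, and at 72 hours 1 mouse was within the control range. The fold at 7 days was -0.73 ± 0.21 (adjusted p = 0.0065). At 12 and 24 hours it was -0.56 ± 0.21 and -0.60 ± 0.21 (adjusted p = 0.075 and 0.055). In the GENCODE annotation Nos3 shares 25.2% of its exon bases with Gm15587 and 294 bases with Atg9b, both on the other strand. No source used here gives the strand of the reads, so reads of these genes cannot be told apart from those of Nos3.

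Counted over the 10 genes, 5 passed the test at 7 days against control, all lower. Of all genes 54.8% passed in either direction, 3061 as lower and 2899 as higher. The median log2 fold of the 10 genes was -0.51, beside -0.03 over all tested genes, and 7 of the 10 folds were below 0. At 12 hours 3 of 10 passed, against 13.2% of all genes, with a median fold of -0.43 beside -0.30 for all genes. At 24 hours 1 of 10 passed, against 16% of all genes, with a median of -0.32 beside -0.19. At 72 hours 0 of 10 passed, against 11.6% of all genes. By the same limma fit 1 member, Kdr, had an unadjusted p under 0.05 at 72 hours, with a fold of -0.38 ± 0.17 (adjusted p = 0.164), and the medians were -0.18 and -0.10. The 4 comparisons share the 3 control mice.

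**Figure D3:**
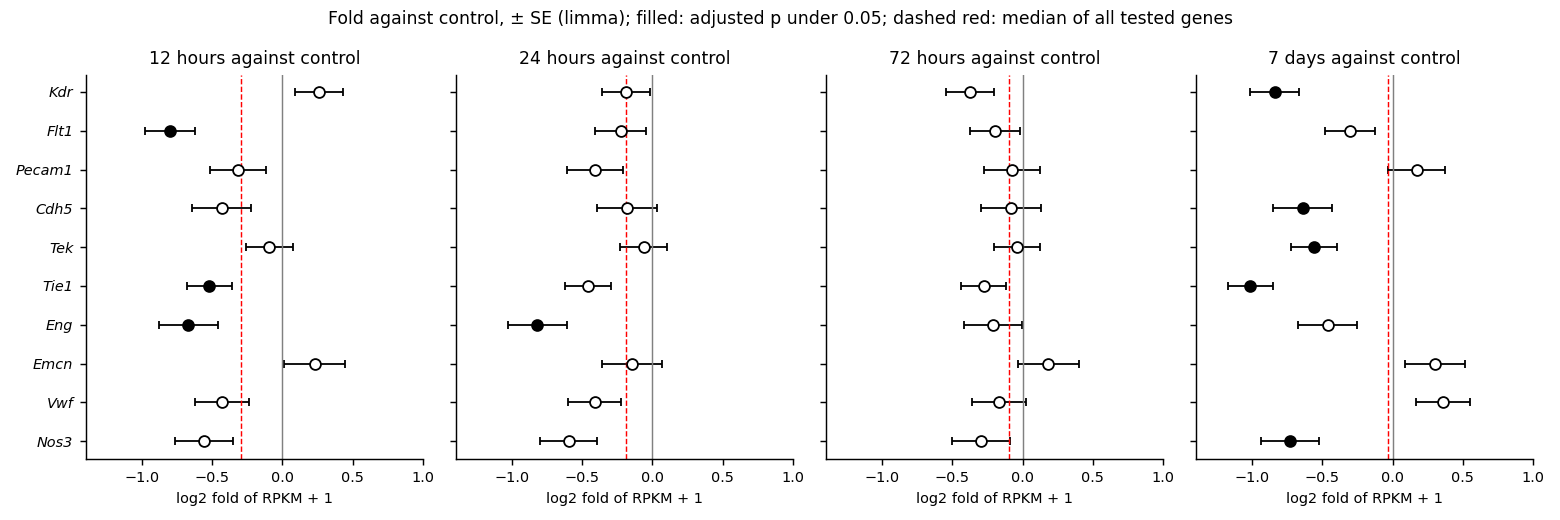
Log2 fold of RPKM + 1 against control (horizontal axis, ± SE, n = 3 mice a group) for the 10 endothelial genes at each time. Filled points passed an adjusted p of 0.05, and the dashed line marks the median of all 10868 genes, at -0.30 at 12 hours and -0.03 at 7 days. At 7 days 5 genes are filled and left of 0, while Pecam1, Emcn and Vwf lie right of it.

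The counts at 12 hours depended on how the libraries were scaled. Over all tested genes the median fold was -0.30, and 57 genes passed as higher and 1375 as lower. When each library was scaled by its median ratio, that median was 0.00 and 72 genes passed as higher and 157 as lower. With this scaling the folds at 12 hours were -0.46 for Flt1, -0.32 for Eng and -0.18 for Tie1 (adjusted p = 0.118, 0.253 and 0.408), and that of Kdr was 0.61 (adjusted p = 0.0595), so none of the 10 genes passed. Eng at 24 hours still passed (-0.61, adjusted p = 0.0218), and the 5 genes lower at 7 days did as well. At 7 days 2 more then passed, Eng as lower (-0.43, adjusted p = 0.0301) and Vwf as higher (0.39, adjusted p = 0.0499). With this scaling 15.3% of all genes passed at 24 hours and 57.45% at 7 days.

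From 72 hours to 7 days 5 of 10 genes passed, in a comparison in which 44.9% of all genes did. Tie1 fell by 0.74 ± 0.16 on the log2 scale (adjusted p = 0.0015), Tek by 0.52 ± 0.17 (adjusted p = 0.0176), Cdh5 by 0.56 ± 0.21 (adjusted p = 0.0405) and Kdr by 0.46 ± 0.17 (adjusted p = 0.0375). Vwf rose by 0.53 ± 0.19 (adjusted p = 0.0326). In each of the 5 the ranges of the 2 groups did not overlap. Without the 7 day mouse A3345, which had the highest Vwf, Tie1 and Tek passed and Cdh5, Kdr and Vwf did not. The count was also 2 without A3278 or without A3281 and 3 without A3269. Of all genes 40.5% passed without A3345, 40.5% without A3278, 42.4% without A3281 and 38.6% without A3269.

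Between 12 and 24 hours none of the 10 genes passed (limma, against 3.92% of all genes), and 2 had an unadjusted p under 0.05: Flt1, at 0.58 ± 0.18 (adjusted p = 0.085), and Kdr, at -0.45 ± 0.17 (adjusted p = 0.152). Both separated the groups without overlap and in opposite directions. Between 24 and 72 hours none passed either (limma, against 10.2% of all genes), and Eng, with a fold of 0.61 ± 0.21 (adjusted p = 0.071), was the 1 gene with an unadjusted p under 0.05. Over all 5 groups the F test of limma passed 7 of 10, against 71.3% of all genes, with adjusted p from 0.00046 for Kdr and 0.00070 for Tie1 to 0.0324 for Tek. Cdh5 (0.058), Pecam1 (0.080) and Emcn (0.288) did not pass.

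Column codes were shared between 72 hours and 7 days, which allowed a comparison within codes. In 3 of 3 codes that held both groups, each 7 day column was below each 72 hour column for Kdr, Cdh5, Tek and Tie1, and above for Vwf and Pecam1. The 3 codes share mice and are not independent: their 72 hour columns come from A3264 and A3281 alone, each in 2 codes, and A3283 is in 2 codes on the 7 day side. Flt1, Eng, Emcn and Nos3 did not keep 1 direction in the 3 codes. How many of all genes keep 1 direction in this way was not counted, and 44.9% of all genes passed from 72 hours to 7 days. With the code as a term in the fit, the differences from 72 hours to 7 days were -0.41 for Kdr (adjusted p = 0.0283), -0.39 for Cdh5 (0.0240), -0.41 for Tek (0.0233), -0.52 for Tie1 (0.0034) and 0.66 for Vwf (0.0145). In that fit 6 of the 10 genes passed from 72 hours to 7 days, these 5 among them, beside 50.4% of all genes. For 7 days against control the same term ended all 5 calls, with -0.61 for Kdr (adjusted p = 0.085) and -0.52 for Tie1 (0.096), -0.32 for both Cdh5 (0.332) and Tek (0.352), and -0.04 for Nos3 (0.938). In that comparison the codes of the controls and of the 7 day mice are linked only through other groups. Between 2 columns of 1 mouse the larger value was a median of 1.14 times the smaller over the 50 pairs of columns and genes, and at most 1.65 times, for Eng.

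**Figure D4:**
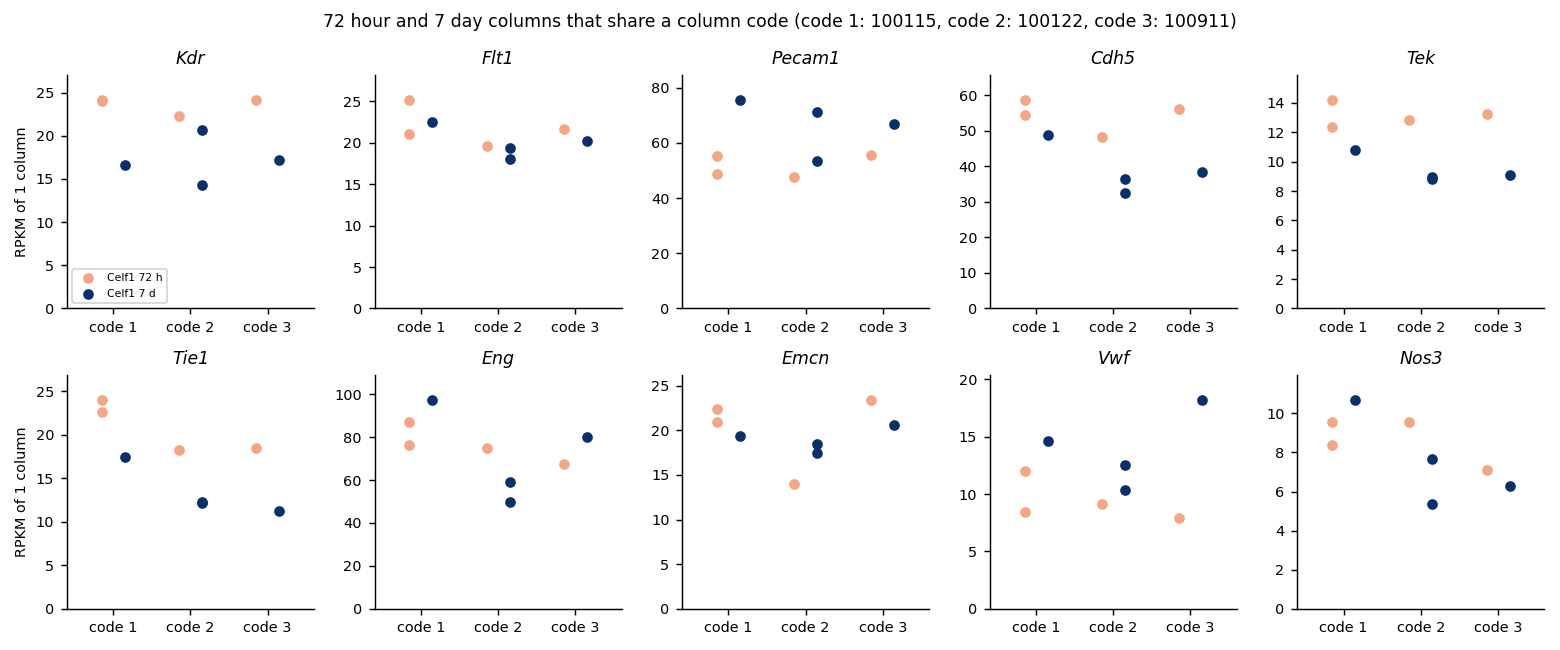
RPKM of single columns (vertical axis, from 0) for the 72 hour and 7 day mice in the 3 column codes that hold both groups. The 7 day points lie below the 72 hour points of the same code in all 3 codes for Kdr, Cdh5, Tek and Tie1, and above them for Pecam1 and Vwf. The codes share mice, and how many of all genes do the same was not counted.

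Base composition differed among the members. The exons of Tie1 and Nos3 have 58.2% G and C, those of Eng 57.7% and of Vwf 56.5%, beside 49.4% for Kdr, 47.1% for Tek and 41.5% for Emcn, and the median gene has 50.6%. After a correction of each library for GC content, the 7 day folds of Kdr (-0.76), Tek (-0.65) and Tie1 (-0.59) still passed, and Tie1 no longer had the lowest fold. Cdh5 (-0.41, adjusted p = 0.095) and Nos3 (-0.30, adjusted p = 0.060) no longer passed, and Vwf then passed as higher (0.72, adjusted p = 0.0012). At 12 and 24 hours the correction left none of the members past the test, beside 1.75% and 9.62% of all genes. At 7 days 55.95% of all genes passed with the correction. Tie1 at 12 hours stood at 0.02 and Eng at 24 hours at -0.37 (adjusted p = 0.115).

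Marker sums of other cells of the ventricle also differed from control, most at 7 days. The counts of markers higher or lower at 7 days are read against the 54.8% of all genes that passed then in either direction, 2899 as higher and 3061 as lower. The summed level of the 8 heart muscle markers was 43686 to 44903 RPKM in the controls and 7671 to 11001 RPKM at 7 days, with 6 of 8 lower and none higher. The 11 macrophage markers found in the table summed to 91.5 to 117 RPKM in the controls and 498 to 727 RPKM at 7 days, and all 11 rose. The 10 fibroblast markers summed to 1122 to 1324 RPKM in the controls and 2278 to 2869 RPKM at 7 days, with 6 higher and 1 lower. RPKM is a share of the mapped reads of a library, so a level is relative to all other RNAs in the library. The part of these shifts in the results on the endothelial genes was not tested.

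Cells that lie on or circulate in vessels were looked at separately. Their counts of markers higher or lower are again those at 7 days, beside 54.8% of all genes. The 9 pericyte markers summed to 243 to 280 RPKM in the controls and 231 to 256 RPKM at 7 days, with 4 higher and 2 lower, and the 7 smooth muscle markers to 1029 to 1127 and 1322 to 1945 RPKM, with 4 higher and 2 lower. The 5 lymphatic endothelial markers in the table summed to 25.1 to 28.1 RPKM in the controls and 25.2 to 58.3 RPKM at 7 days, with 2 of the 4 tested higher and 1 lower. The 5 endocardial markers summed to 17.2 to 20.5 and 18.6 to 28.4 RPKM, with Nrg1 and Hapln1 at 0 in some mice. Of platelet markers, which bear on Vwf and Pecam1 because platelets contain both, 6 summed to 3.57 to 6.57 RPKM in the controls and 4.71 to 25.1 RPKM at 7 days, and Gp9, Gp5 and Treml1 were at 0 in some mice. The 6 lymphocyte markers summed to 1.73 to 2.46 RPKM in the controls and 20.1 to 22.4 RPKM at 7 days, with both that were tested higher. The 5 erythrocyte markers in the table summed to 1920 to 3223 RPKM in the controls and 103 to 686 RPKM at 7 days, with all 3 that were tested lower. The 10 endothelial genes themselves summed to 348 to 361 RPKM in the controls, 246 to 328 at 12 hours, 251 to 282 at 24 hours, 299 to 356 at 72 hours and 233 to 306 RPKM at 7 days.

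**Figure D5:**
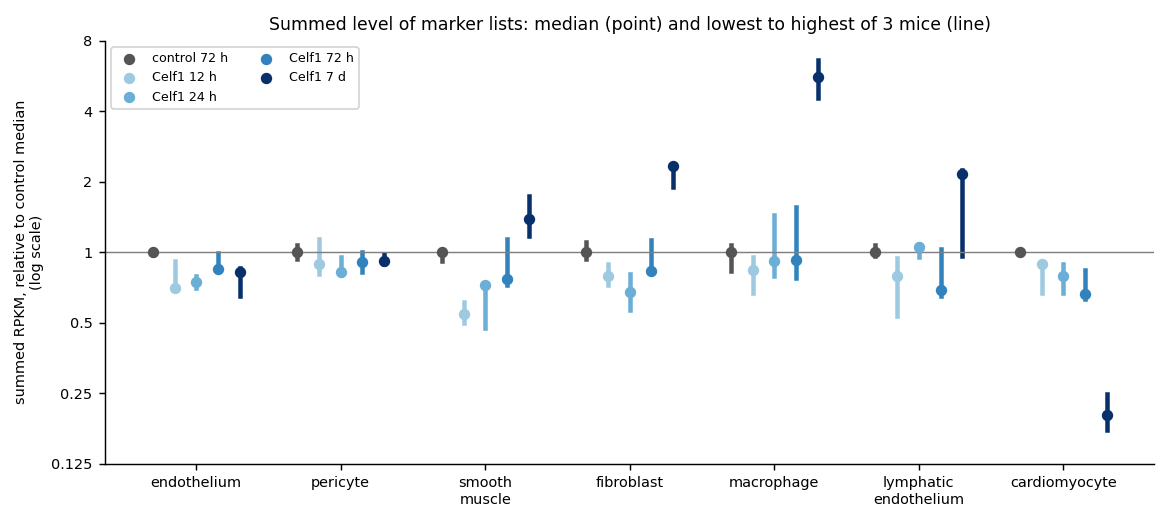
Summed RPKM of 7 marker lists relative to the median control (vertical axis, log scale) by group, as the median (point) and the lowest to highest of 3 mice (line). At 7 days heart muscle markers are far below 1, macrophage and fibroblast markers are above it, and the 10 endothelial genes and the pericyte markers stay nearer to 1.

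The lists of partner genes that follow are read against the shares of all genes that passed, 54.8% at 7 days, 13.2% at 12 hours, 16% at 24 hours and 11.6% at 72 hours. These shares join both directions. Of the 10868 genes, 2899 were higher and 3061 lower at 7 days, and 57 and 1375 at 12 hours. The numbers were 585 higher and 1151 lower at 24 hours, and 695 and 567 at 72 hours. Their folds are against the 3 controls, which share 1 column code, and are given without the code in the fit. With the code as a term 29.2% of all genes passed at 7 days against control. Of 12 tested secreted factors, which were growth factors of the vascular endothelial, angiopoietin and bone morphogenetic protein families with angiopoietin-like proteins, Tgfb1 and apelin, 5 were higher and 2 lower at 7 days, beside 54.8% of all genes, with a median fold of 0.07. Other ligands of these receptors were not analysed here. Vegfb, a ligand of Flt1 and not of Kdr, fell by 2.33 ± 0.22 (adjusted p = 2.1e-07), from a mean of 210 RPKM to 41.4 RPKM. Angptl4, which acts on lipid supply and vessel leakage, rose from 5.06 to 39.9 RPKM (2.88 ± 0.44), Figf, a ligand that is also named Vegfd, from 2.94 to 8.27 RPKM (1.21 ± 0.28), and Tgfb1, whose signal Eng modulates, from 13.1 to 26.3 RPKM (0.95 ± 0.23). The other higher factors, named after their values were seen, were Pgf, another ligand of Flt1 (1.32 ± 0.32, adjusted p = 0.0021), and Angpt2, a ligand of Tek (0.96 ± 0.20, adjusted p = 0.00079), and the other lower one was Apln (-1.30 ± 0.38, adjusted p = 0.0080). At 12 hours 3 of the 12 were lower, at 24 hours 1 was higher and 2 lower, and at 72 hours none passed. The higher one at 24 hours, named after its values were seen, was Angpt1, also a ligand of Tek. It went from 3.30 RPKM in the controls to 6.55 RPKM (0.79 ± 0.26, adjusted p = 0.0490). At 12 hours Angpt1 was at 6.47 RPKM (adjusted p = 0.0546) and at 7 days at 2.62 RPKM (adjusted p = 0.413), without passing.

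Partner receptors and signalling genes were likewise split, with 6 higher and 8 lower of 25 tested at 7 days, beside 54.8% of all genes, and a median of -0.17. Mmp14, a membrane protease that can shed endothelial surface proteins, rose from 5.11 to 39.1 RPKM (2.71 ± 0.19, adjusted p = 6.9e-09), and Tgfbr1 and Tgfbr2, the receptors with which Eng works, rose by 1.54 ± 0.26 and 1.01 ± 0.23. The apelin receptor of endothelial cells, listed as Agtrl1, fell by 2.05 ± 0.31 (adjusted p = 2.8e-05), from 12.2 to 2.16 RPKM. At 12 hours 1 was higher and 6 lower, at 24 hours 1 was higher and 1 lower, and at 72 hours none passed.

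Of 18 junction and adhesion genes 4 were higher and 7 lower at 7 days, beside 54.8% of all genes, with a median of -0.26. The higher ones included adhesion molecules that bind leukocytes: Vcam1 rose from 5.44 to 15.99 RPKM (1.41 ± 0.17, adjusted p = 3.1e-06), Selp, which is stored with Vwf, from 0.257 to 3.27 RPKM (1.70 ± 0.23) and Sele from 0.313 to 2.15 RPKM (1.20 ± 0.25). The other higher one, named after its values were seen, was Mcam, which is also in the pericyte list. It rose from 13.7 to 25.4 RPKM (0.83 ± 0.22, adjusted p = 0.0038). Among the 7 lower, named after their values were seen, were Icam2, which also binds leukocytes (-0.95 ± 0.23, adjusted p = 0.0023), Podxl (-1.26 ± 0.20, 6.7e-05) and the junction proteins Jam2 (-0.65 ± 0.22, 0.0177), Jam3 (-1.04 ± 0.25, 0.0020) and Cgnl1 (-0.96 ± 0.20, 0.00060). Already at 72 hours, where none of the 10 endothelial genes passed, 4 of these 18 were higher and none lower, beside 11.6% of all genes in either direction (695 higher and 567 lower). They were Vcam1 (0.61 ± 0.17, adjusted p = 0.0275), Selp (0.94 ± 0.23, 0.0140), Sele (1.33 ± 0.25, 0.0028) and Icam1 (0.98 ± 0.23, 0.0122). In the controls, at 12 and at 24 hours Selp averaged 0.257, 0.257 and 0.362 RPKM, and Sele 0.313, 0.313 and 0.373 RPKM. Both reached the mean of 1 RPKM needed for testing only through the 72 hour and 7 day groups. Their calls as higher in these groups are therefore not independent of the filter. Icam1 did not pass at 7 days (0.52 ± 0.23, adjusted p = 0.068). At 12 hours 1 of the 18 was lower and at 24 hours 4 were.

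Genes around nitric oxide and shear stress, 17 tested, had 4 higher and 5 lower at 7 days, beside 54.8% of all genes, with a median of -0.33. Klf2, a transcription factor that responds to flow and promotes Nos3, was at a mean of 40.2 RPKM in the controls. It was lower at 12 hours (-1.59 ± 0.38, adjusted p = 0.018), 24 hours (-2.17 ± 0.38, 0.0070) and 7 days (-2.03 ± 0.38, 0.00025), and at 72 hours its fold was -0.57 ± 0.38 (0.339). The means of Nos3 were 12.7 RPKM in the controls, 8.31, 8.07 and 7.39 RPKM at these 3 times and 10.4 RPKM at 72 hours. Against control Nos3 passed at 7 days alone, and its fold there was -0.04 with the column code in the fit. A link between Klf2 and Nos3 was not tested. The receptor Ednrb, the peptide hormone Edn1 and the protein C receptor Procr rose at 7 days by 1.07 ± 0.16, 1.30 ± 0.24 and 1.79 ± 0.25. At 12 hours 6 of the 17 were lower, at 24 hours 3 were, and at 72 hours 1 was higher.

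Among 11 genes of Vwf handling and haemostasis 6 were higher and 3 lower at 7 days, beside 54.8% of all genes, with a median of 0.98. Anxa2 and S100a10, which form a complex that takes part in Vwf release, rose by 2.37 ± 0.19 (adjusted p = 3.3e-08) and 2.34 ± 0.18 (adjusted p = 2.0e-08). These genes are expressed by other cells of the ventricle too. At 12 and 24 hours 1 was lower and none higher, and at 72 hours 1, Selp, was higher. Selp was among the tested genes only through its levels at 72 hours and 7 days.

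Of 21 endothelial transcription factors 7 were lower at 12 hours, 5 at 24 hours and 7 at 7 days, while 3 were higher at 7 days and 1 higher and 1 lower at 72 hours, beside 13.2%, 16%, 54.8% and 11.6% of all genes at 12 hours, 24 hours, 7 days and 72 hours. The counts at 12 hours of this and the other lists come from the scaling in which 1375 genes passed as lower, beside 157 with median ratios. Their median was -0.56 at 12 hours, -0.57 at 24 hours and -0.32 at 7 days. Sox7 was lower at 12 hours (-1.13 ± 0.27, adjusted p = 0.0188) and at 7 days (-1.85 ± 0.27, 2.3e-05). Hif1a (1.87 ± 0.20), Lyl1 (1.01 ± 0.22) and Fli1 (0.68 ± 0.16) were the 3 that were higher at 7 days, and all 3 are known in blood cells or other cells as well.

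Other endothelial markers, 33 tested, had 7 higher and 16 lower at 7 days, beside 54.8% of all genes, with a median of -0.56, close to the -0.51 of the 10 genes. The water channel Aqp1 fell from 132 to 22.95 RPKM (-2.50 ± 0.24, adjusted p = 2.4e-07), Ushbp1 from 30.6 to 9.40 RPKM (-1.60 ± 0.17) and 1190002H23Rik, which is also named Rgcc, from 37.5 to 14.2 RPKM (-1.37 ± 0.28). The prostaglandin transporter Slco2a1 rose from 0.827 to 3.78 RPKM (1.32 ± 0.24). At 12 hours 7 of the 33 were lower, at 24 hours 6 were, and at 72 hours none passed. These lists were chosen with earlier results of these data known, so their counts are descriptions.

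Across the 15 mice some of the 10 genes went together and others did not. With each library centred on its median log2 ratio, 26 of the 45 pairs of members had a correlation above 0, with a median Pearson r of 0.06 and a range from -0.71 for Tek with Vwf to 0.84 for Tie1 with Nos3. Without the centring 28 of the 45 pairs were above 0, and the median was 0.32. With centring, r against the mean of the other 9 was 0.67 for Tek, 0.65 for Cdh5 and Tie1, 0.59 for Nos3 and 0.46 for Kdr, and it was -0.21 for Pecam1, -0.26 for Emcn and -0.57 for Vwf. These values describe 15 mice in 5 groups, whose points share treatment, column code and base composition, and carry no test.

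The genes most like the mean of the 10 in this measure were Letm2 (r = 0.90), 3110004L20Rik (0.89), Ppp1r13b (0.89), Tmem16a (0.88), Prkag1 (0.88), Cmtm8 (0.88), 5730403B10Rik (0.87) and Mmrn2 (0.87), over 15 mice. Mmrn2 is an endothelial matrix protein. Without the centring of libraries 1 of these 8 remained among the 8 nearest, Ppp1r13b. The gene models of the 10 endothelial genes, in the mm9 build of the expression table and the GENCODE annotation, lie apart from each other: Kdr at chr5:76328852-76374483 and Flt1 at chr5:148373180-148537587 on the minus strand and Nos3 at chr5:23870628-23890292 on the plus strand. On chromosome 4 lie Tek at chr4:94405980-94541667 on the plus strand and Tie1 at chr4:118143796-118162666 on the minus strand. The others are Pecam1 at chr11:106515531-106611942 (minus), Cdh5 at chr8:106625525-106668402 (plus), Eng at chr2:32502115-32538189 (plus), Emcn at chr3:137004031-137095149 (plus) and Vwf at chr6:125496792-125636697 (plus).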

How the data were processed

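The authors deposited 1 table of RPKM values for 16042 genes in 20 columns. The submitters' processing notes name TopHat, Bowtie and mm9. Versions, counting method and strand were not given in the sources used here. For 5 mice with 2 columns the columns were averaged. Groups and mouse numbers come from the labels. Values were used as log2(RPKM + 1) for 10868 genes that averaged 1 RPKM or more, so folds of low genes are understated. A single fit with limma 3.58.1 under R 4.3.3 (eBayes with trend, 10 residual and 7.12 prior degrees of freedom) held all 15 mice. P-values were adjusted by Benjamini-Hochberg within each comparison, with a threshold of 0.05, and measure the spread between mice.

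The members and lists were chosen with earlier results of these data known. All members are named, and of each partner list at most the 4 genes with the smallest F test p (1 of them is not reported here); the 8 genes most like the members were taken by Pearson correlation. Icam1 at 72 hours and the other genes given for single times fall under the same rule. Alternatives were a minimum mean of 5 RPKM or none, a pseudocount of 0.1, scaling by median ratios or quantiles, a robust eBayes, fitting 2 groups by themselves, the first column of each mouse, a lowess GC correction with a span of 0.3 (10823 genes) and leaving out each mouse. A fit that included the column code and a random effect of mouse (16 columns, without the 24 hour group, mouse correlation 0.283), was added after the data had been seen. Depth was estimated from 61 olfactory receptor genes, and 60 of 60 simulated columns came within 5%. The simulated counts had the same paired reads that the estimate assumes. No simulated depth was as low as the 10.02 M estimated for A3280, which rests on 7 values. On simulated data for 72 hours against control (10868 genes), 64% of 100 genes changed by 1 on the log2 scale and 97% of 100 changed by 2 were recovered, with 11 unchanged genes among 172 called. Promoter sequences are from RefSeq (GRCm38.p6), and exon positions, overlaps and GC content from GENCODE vM1 on mm9.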

Additional observations from a re-analysis of the deposited data

Results flagged for a closer look

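Between successive times (12 to 24 hours, 24 to 72 hours, 72 hours to 7 days), the steps that were tested, members that differed by the test of the step were Tie1, Tek, Cdh5, Kdr and Vwf, from 72 hours to 7 days of doxycycline, which are groups of different mice on the same cassette. The log2 differences, 7 days minus 72 hours, were -0.74 for Tie1, -0.52 for Tek, -0.56 for Cdh5, -0.465 for Kdr and 0.53 for Vwf. Vwf was the 1 gene of these 5 that was higher at 7 days. Groups of 3 mice were too small for a search for single outlying mice.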

How the results depend on the processing

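No paired analysis was possible because the mouse numbers of the labels occur in 1 group each. Of the counts of members past the test, 12 hours against control (3) became 0 with median-ratio scaling, quantile normalization, GC correction or the column code in the fit, 1 with the first column of each mouse, and 0 to 2 without 1 mouse. The share of all genes fell too, from 13.2% to 2.11%, 1.79%, 1.75% and 0.0828% in the first 4 of these. It was 6.61% with the first column of each mouse and 1.26% to 12.8% without 1 mouse. The count at 24 hours (1, Eng) became 2 with a mean RPKM of at least 5 (21.6% of all genes) or with the 2 groups alone (20.05%). It became 0 with GC correction (9.62%) and was 0 to 1 without 1 mouse. It was 0 without A3259, A3280 or A3262, where 2.02%, 0.359% and 1.28% of all genes passed beside 16%. The count at 7 days (5) became 0 with the column code, with 29.2% of all genes. It was 4 to 6 without 1 mouse, beside 45.7% to 51.2% of all genes, with Cdh5 lost without A3280 or A3269. From 12 to 24 hours (0) the count became 1 with median-ratio scaling (4.16% of all genes) or quantile normalization (3.78%) and 2 with GC correction (6.97%). It was 0 to 1 without 1 mouse (1 without A3252, with 2.97% of all genes). From 24 to 72 hours (0) it became 1 with median-ratio scaling (13.5%) or quantile normalization (13.4%). From 72 hours to 7 days (5) it became 3 with the 2 groups alone (37.3% of all genes) or the first column of each mouse (40.4%). It was 2 to 5 without 1 mouse: 3 without A3269 (38.6%) and 2 without A3278 (40.5%), A3281 (42.4%) or A3345 (40.5%). The count at 72 hours was 0 in every alternative run, and the F test gave 5 to 9, beside 52.6% to 75.9% of all genes. Directions turned for Tie1 at 12 hours (0.020 with GC correction), for Eng at 7 days (0.095 with the column code) and for Emcn at 7 days (-0.25 with GC correction, -0.31 with the column code). The causes of these changes were not tested. Tie1, Kdr and Tek at 7 days passed in 15 of 16 alternatives, all but the column code, and Tie1 from 72 hours to 7 days in all 16. Leaving out 1 mouse at 12 hours changed the count in 5 of 6 cases to 0 or 1: A3250, A3259, A3280, A3258 and A3276.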
